A study of Homo sapiens with 18 samples.

Results

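ABCC1-overexpressing BE(2)-m17 cells were compared with empty vector control cells in the first of 3 RNA-seq experiments. The libraries were taken by their titles, which number the experiment, the line and the replicate, and came to 6 of the 18 in the series. They comprised 3 libraries of empty vector cells and 3 of ABCC1-overexpressing cells. BE(2)-m17 is an established human neuroblastoma cell line with a sympathetic, catecholamine-producing character. All cells in the comparison carried pSBbi-Hyg-APP, a transposable vector with a codon-optimized human APP insert. The control line also carried the empty vector pSBbi-Pur, and the ABCC1 line carried pSBbi-Pur-ABCC1(WT), which holds codon-optimized human ABCC1. Each genotype was represented by a single stably transfected line, and each well received 14000000 cells and was harvested for RNA on day 4. The methods describe weekly plating of each line, and the labels number the replicates without saying more. Where the vectors integrated, which cells survived selection and what ABCC1 did therefore cannot be told apart within this experiment. In bulk RNA, fewer cells of a type and less RNA per cell likewise cannot be told apart.

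ABCC1, also called MRP1, is an ATP-driven pump of the plasma membrane that exports organic anions, among them glutathione conjugates and the leukotriene LTC4. Neuroblastoma cells of the adrenergic state keep a network of transcription factors of the sympathetic lineage, including HAND2, GATA3 and PHOX2A, together with the enzymes and granules of catecholamine secretion. Receptor tyrosine kinases of these cells signal through ERK, which switches on immediate early genes and its own feedback inhibitors within minutes to hours.

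The depth of a library, as assigned read pairs, ran from 27433393 to 57937653. Reads on the codon-optimized ABCC1 insert checked the labels: the empty vector libraries held 11, 5 and 15, and the ABCC1 libraries held 583654, 328102 and 594404. The gene row of endogenous ABCC1, which encodes the native sequence, was at 156, 152 and 152 CPM (the usual library-scaled read count, with TMM size factors) in the control and 149, 146 and 161 CPM in the ABCC1 line, and the groups overlapped. Vector sequences took 0.362 to 0.428% of the control libraries and 1.30 to 1.32% of the ABCC1 libraries. ABCC1 replicate 3 stood apart from its group. Its counts differed from those of the other ABCC1 libraries with chi-square values of 24.0 and 17.9 per degree of freedom, against 1.53 between ABCC1 replicates 1 and 2 and 2.23 to 4.66 among the controls. Counts of members called that moved by over 1.5 times and by at least 3 members without it are given beside the list.

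The cell type label was compared with its defining genes. HAND2, a transcription factor of the sympathetic lineage, was at 849 ± 79.6 CPM (SD, n = 3) in the control and 848 ± 24.8 CPM in the ABCC1 line. CHGA, TH, DBH, GATA3 and MYCN were also expressed. Of 29 markers of adrenal cortex, blood, endothelium, epidermis, fibroblasts and glia, 12 had 3 counts or fewer in every library, among them PTPRC, SOX10, CDH5 and HBB. The 14 markers with enough counts for the test summed to 129 to 133 CPM in the control and 192 to 196 CPM in the ABCC1 line. Most of that sum was DCN and LUM, small matrix proteoglycans of fibroblasts, and the part of these cells or genes in the results below was not tested.

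Of 16995 genes tested with edgeR's quasi-likelihood test, 3040 (17.9%) were higher and 3342 (19.7%) lower in the ABCC1 line at a Benjamini-Hochberg adjusted p of at most 0.05, and such genes are called higher or lower below. At least 1.5-fold differences in this set numbered 706 higher (4.15%) and 1155 lower (6.8%). The median log2 fold change (log2FC) over all genes tested was 0.01. With so many genes called, a list of genes was read against these shares. The values of both groups did not overlap in 8570 of the 16995 genes (50.4%).

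**Figure D1:**
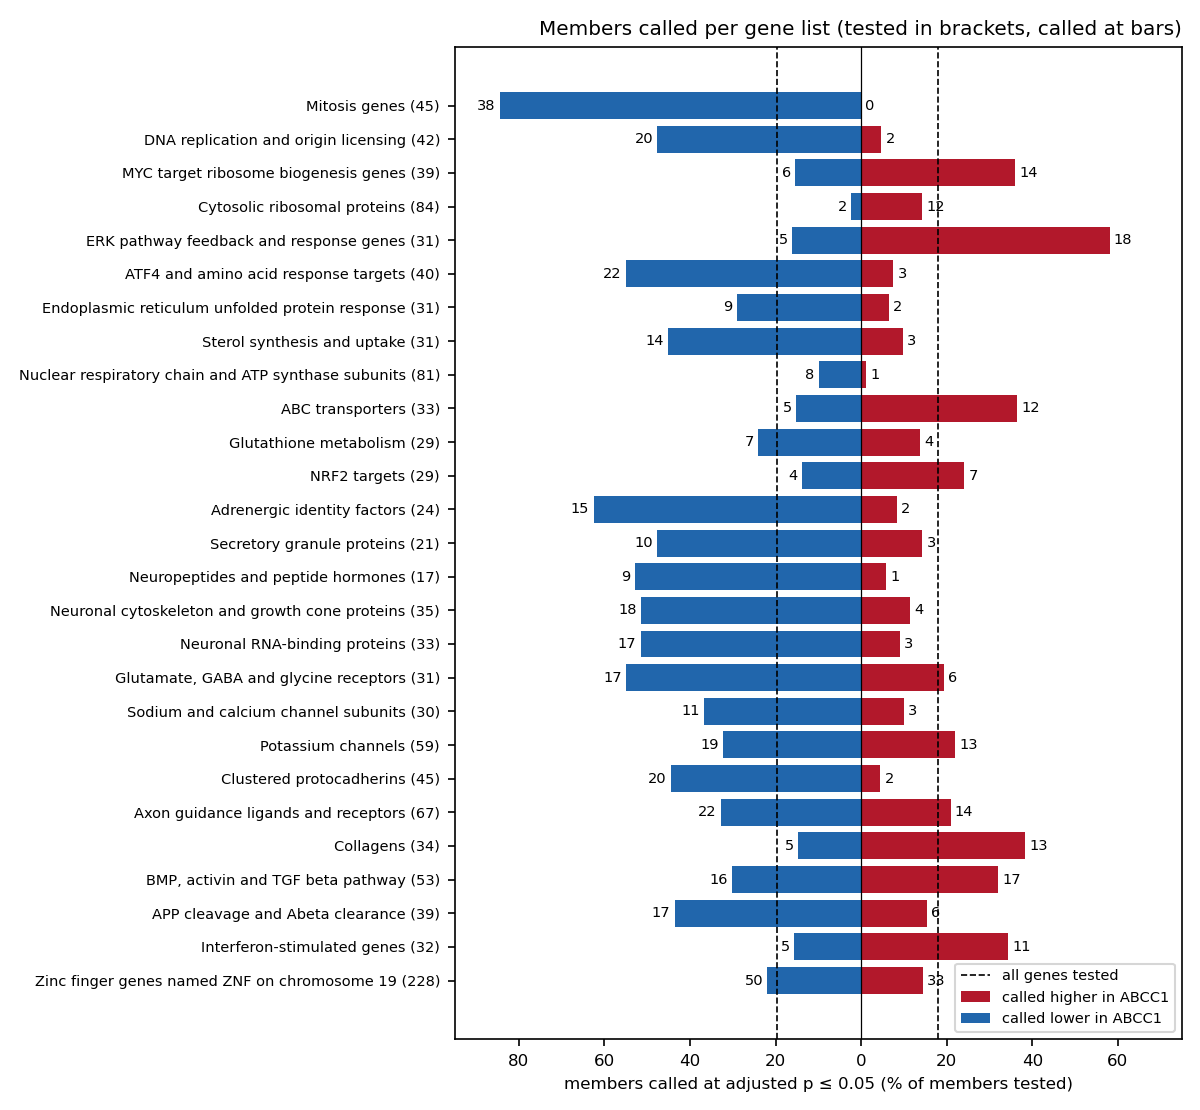
The bars give the share of tested members of each gene list that were called higher (right, red) or lower (left, blue) in the ABCC1 line, in percent, with the number called at the bar and the number tested in brackets. The dashed lines mark all genes tested, 17.9% higher and 19.7% lower, and the mitosis list reaches farthest to the left, with 38 of 45 members lower and 0 higher.

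Most genes of mitosis were lower. Of 45 mitosis genes, 38 were called lower and 0 higher, with a median log2FC of -0.31. At an unadjusted p under 0.05, 40 were lower and 0 higher, and DESeq2 called 35 lower and 0 higher. Each difference was small. CDC25B, the phosphatase that activates CDK1 at mitotic entry, was at 351, 338 and 333 CPM in the control and 193, 189 and 234 CPM in the ABCC1 line. Those libraries did not overlap, and the fold was 1.66-fold lower (adjusted p = 4.8e-05). BUB1, a kinase of the spindle checkpoint, fell from 80.5 ± 0.717 to 55.5 ± 0.503 CPM (log2FC -0.54 ± 0.04 SE, adjusted p = 3.4e-06). HMMR, a spindle assembly protein, and AURKA, a centrosomal mitotic kinase, had log2FCs of -0.58 and -0.43. CCNB1 and PLK1, the B-type cyclin and the polo kinase of mitotic entry, were lower by smaller amounts, at -0.21 and -0.33. CDK1, CDC20 and TOP2A were called lower too, with log2FCs of -0.39, -0.46 and -0.26. MKI67, the proliferation antigen Ki-67, was not called, at 1402 ± 47.9 and 1332 ± 53 CPM.

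More DNA replication genes were lower than higher. In that list of 42, 20 were lower, 2 higher and 20 not called, with a median log2FC of -0.11. PCNA, the sliding clamp of DNA polymerase, went from 284 ± 17.8 to 233 ± 7.04 CPM, and MCM2, a subunit of the replicative helicase, from 108 ± 2.74 to 92.1 ± 1.79 CPM. The S-phase cyclins CCNE1 and CCNE2 had log2FCs of -0.52 and -0.60, and RRM2, the small subunit of ribonucleotide reductase, -0.42. CDC6, a licensing factor, was not called (log2FC -0.07).

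Most promoters of the mitosis list hold a short sequence, and 3 of them are shown because their genes were called lower. The CCAAT box, with the letters CCAAT on either strand, is the site bound by NF-Y, a factor known for driving late cell cycle genes. In RefSeq promoters reaching from 250 bases before to 50 bases after the start site, it occurred in 29 of 38 mitosis genes with a promoter (76.3%) and in 36.2% of the 11895 tested genes with one. More than 1 match was found in 44.7% of the mitosis promoters. It was also found in 82.8% of 29 promoters of the unfolded protein response and 70.8% of 24 promoters of sterol genes, and in 28% of promoters of genes at least 1.5-fold higher and 30.8% of those at least 1.5-fold lower. The 150 bases before the start site are printed on the strand of the gene, on build GRCh38.p14, with each match in capitals. CCNB1 is at chr5:69167000-69167149 (plus strand), PLK1 at chr16:23678739-23678888 (plus strand) and BUB1 at chr2:110678064-110678213 (minus strand).
CCNB1: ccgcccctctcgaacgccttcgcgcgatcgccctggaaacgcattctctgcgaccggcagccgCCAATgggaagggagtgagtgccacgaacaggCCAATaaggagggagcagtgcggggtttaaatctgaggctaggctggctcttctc
PLK1: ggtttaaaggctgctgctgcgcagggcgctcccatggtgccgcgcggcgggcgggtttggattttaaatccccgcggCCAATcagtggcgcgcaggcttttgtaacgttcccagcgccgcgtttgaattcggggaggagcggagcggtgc
BUB1: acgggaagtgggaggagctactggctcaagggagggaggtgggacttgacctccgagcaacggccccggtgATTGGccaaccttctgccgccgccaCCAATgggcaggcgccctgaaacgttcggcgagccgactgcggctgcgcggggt
The matches of CCNB1 begin 87 and 55 bases before its start site, that of PLK1 73 bases and those of BUB1 79 and 54 bases, the first of these on the opposite strand. A match describes the letters and was not tested as a site. The cAMP response element (TGACGTCA), the E box (CACGTG) and the antioxidant response element (TGACNNNGC) were searched in the same way. They were found in 3.19%, 9.79% and 14.8% of the tested promoters, against 1.18%, 9.72% and 14.5% of those of genes at least 1.5-fold higher and 1.2%, 5.74% and 11.5% of those at least 1.5-fold lower.

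CDKN1A, which encodes the CDK inhibitor p21, was lower than the control in every library. It was at 254, 245 and 233 CPM in the control and 105, 100.4 and 114 CPM in the ABCC1 line, a 2.29-fold difference with no overlap (adjusted p = 7.5e-08). FAS, a death receptor, had a log2FC of -1.76 and was called lower too.

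More genes that respond to ERK signaling were higher than lower. Of 31, 18 were called higher and 5 lower, against 17.9% and 19.7% of all genes, and the median log2FC was 0.26. ARC, an immediate early gene of synaptic plasticity, was at 143, 123 and 114 CPM in the control and 265, 263 and 337 CPM in the ABCC1 line (2.27-fold, adjusted p = 5.2e-05). EGR1, an immediate early zinc finger factor, was at 193, 167 and 137 CPM against 306, 290.1 and 368 CPM (1.94-fold, adjusted p = 4.9e-04). The groups did not overlap for either gene, and the ABCC1 libraries also varied among themselves. EGR3 and NR4A3, factors of the same early wave, had log2FCs of 1.04 and 1.02, and FOS 0.53. Of its feedback inhibitors, SPRY1, an inhibitor of receptor signaling, had a log2FC of 1.09, and the ERK phosphatases DUSP6 and DUSP5 had 0.50 and 0.62. SPRY4, another inhibitor, was at 438 ± 5.19 and 407 ± 23.4 CPM and was not called. The 5 lower members were CCND1, DUSP4, ETV1, ETV5 and JUN, a set named after its values were seen. Lower members numbered 3 without empty vector replicate 1 or 3 and without ABCC1 replicate 1 or 2.

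The receptors upstream changed in both directions. Among 32 receptor tyrosine kinases and coreceptors tested, 14 were higher and 12 lower, and the higher members numbered 9 without empty vector replicate 3. RET, the receptor of the GDNF family, rose slightly from 1089 ± 17.1 to 1249.5 ± 63.6 CPM (log2FC 0.20). ALK, the kinase often activated in neuroblastoma, had a log2FC of -0.56 and NTRK2, the BDNF receptor, -0.42. ERBB4, a neuregulin receptor, fell to a low level, from 8.39, 9.41 and 8.38 to 1.36, 1.47 and 1.37 CPM. FGFR3 and FGFR4, receptors of one growth factor family, parted, with log2FCs of -2.32 and 1.17. PDGFRB, the platelet-derived growth factor receptor beta, was at 13 ± 0.675 against 21.5 ± 0.730 CPM (log2FC 0.73).

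MYCN, the MYC family oncogene that is amplified in many neuroblastomas, was at 2995, 2997 and 2748 CPM in the control and 3644, 3689.8 and 4606 CPM in the ABCC1 line. The ABCC1 libraries were all higher (1.37-fold, adjusted p = 0.0026). MYC was low throughout, at 1.6 ± 0.186 and 1.15 ± 0.0523 CPM. Of 39 ribosome biogenesis genes and partners in the MYC network, 14 were higher and 6 lower, and 24 were higher without ABCC1 replicate 3. NOP2, a nucleolar methyltransferase, POLR1B, a subunit of RNA polymerase I, and PPAN, a ribosome assembly factor, had log2FCs of 0.37, 0.29 and 0.65. NCL and NPM1, abundant nucleolar proteins, were not called (log2FC 0.04 and 0.06), ODC1, of polyamine synthesis, fell by 0.17 on the log2 scale, and MXD1, a repressor that competes with MYC, had -1.0. The E box, a motif bound by MYC proteins, occurred in 15 of 34 promoters of the list (44.1%). Of its 11 higher members with a promoter, 4 held it, and of its 5 lower members, 1. Structural proteins of the ribosome changed little: 12 of 84 were higher and 2 lower. That number of higher members was 4, 7 and 3 without empty vector replicates 1, 2 and 3, 29 without ABCC1 replicate 3 and 32 with no filter on low counts. RPS6 and RPL3, subunit proteins, had log2FCs of 0.06 and -0.02 and were not called.

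**Figure D2:**
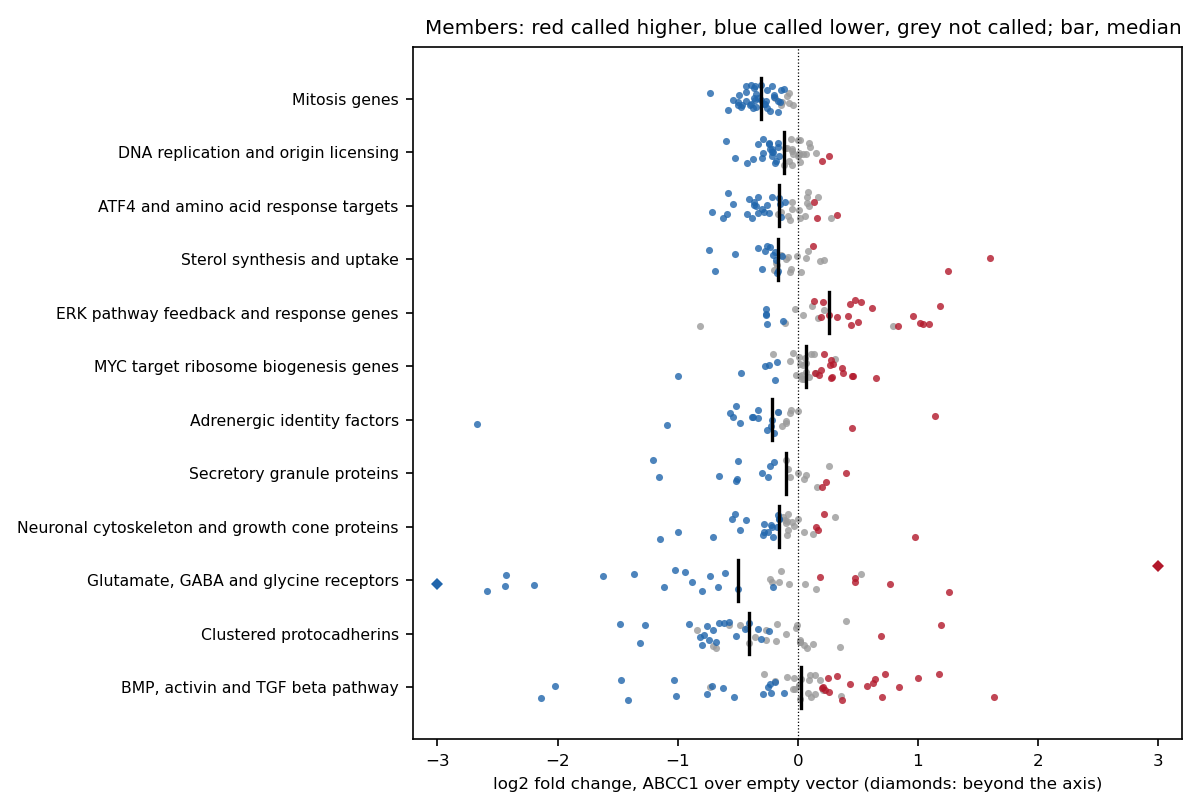
Each point is 1 tested member of a list, placed by its log2 fold change of ABCC1 over empty vector, red where called higher, blue where called lower and grey where not called, with a black bar at the median. The mitosis points sit in a narrow band around a median of -0.31, while those of glutamate, GABA and glycine receptors spread widely around -0.50.

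More genes under ATF4, a factor induced by amino acid shortage, were lower than higher. In a list of 40 ATF4 and amino acid response targets, 22 were lower and 3 higher, with a median log2FC of -0.15 and with 7 higher without ABCC1 replicate 3. TRIB3, a pseudokinase induced by this response, was at 1191, 1112 and 1176 CPM in the control and 867, 859 and 982 CPM in the ABCC1 line (log2FC -0.36, adjusted p = 6.9e-04). PCK2, mitochondrial phosphoenolpyruvate carboxykinase, and WARS1, tryptophanyl-tRNA synthetase, had log2FCs of -0.71 and -0.59. ATF5, a related transcription factor, went from 1315 ± 38.8 to 877 ± 26.5 CPM. PSPH of serine synthesis, ALDH1L2 of mitochondrial folate metabolism and GARS1, glycyl-tRNA synthetase, had log2FCs of -0.40, -0.54 and -0.36. The ATF4 transcript itself was not called (1157 ± 40.2 and 1120.5 ± 12.3 CPM), and neither was DDIT4, a stress-induced inhibitor of mTORC1 (log2FC -0.06). Among the higher members were SLC3A2, the heavy chain of the cystine and leucine exchangers (log2FC 0.33), and CEBPG, a dimer partner of ATF4 (0.16).

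In the unfolded protein response of the endoplasmic reticulum, 9 of 31 genes were lower and 2 higher. EDEM1 and HERPUD1, which serve the disposal of misfolded proteins, had log2FCs of -0.51 and -0.44. HSPA5, the chaperone BiP, did not differ beyond its spread, at 1079 ± 26.5 and 1077 ± 51.9 CPM. Of 25 heat shock response genes, 3 were higher and 4 lower, with 6 higher without ABCC1 replicate 3. DNAJB1, an HSP40 cochaperone, had a log2FC of 0.38 and BAG3, a cochaperone of selective autophagy, -0.46.

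Sterol synthesis and uptake genes were lower in part. Of 31, 14 were lower and 3 higher, with a median log2FC of -0.16. The lower members numbered 8, 8 and 7 without empty vector replicates 1, 2 and 3, and 9 and 8 without ABCC1 replicates 1 and 2. The higher members numbered 1 by DESeq2, and 0 by edgeR (1 at an unadjusted p under 0.05) when at least 10 counts in every library were required. STARD4, an intracellular sterol carrier, fell from 76.5 ± 2.40 to 45.7 ± 0.902 CPM (1.67-fold lower, adjusted p = 7.6e-07). IDI1, an isoprenoid isomerase, and HMGCS1, which makes HMG-CoA, had log2FCs of -0.52 and -0.33, and SQLE, squalene epoxidase, was not called (-0.08). Fatty acid and LXR target genes were split, with 7 higher and 11 lower among 26, and 7 lower without empty vector replicate 1 or 3. ABCA1, the cholesterol efflux pump, rose (log2FC 0.72), while ABCG1, another sterol exporter, fell (log2FC -0.32).

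ABC transporter genes were more often higher than lower. Of 33 tested, the native ABCC1 gene included, 12 were called higher and 5 lower, with 8 lower without ABCC1 replicate 3. ABCB1, the multidrug pump P-glycoprotein, was at 5.84, 4.89 and 6.24 CPM in the control and 14.1, 15.4 and 12.9 CPM in the ABCC1 line (2.47-fold, adjusted p = 4.5e-06). ABCC11, a pump of the same subfamily as ABCC1, was at 0.533, 0.852 and 0.608 against 3.44, 3.13 and 2.82 CPM (4.84-fold, adjusted p = 5.9e-06). The groups did not overlap for either gene. ABCA4, a retinoid transporter, was lower (log2FC -1.03). The endogenous ABCC1 gene had a log2FC of -0.01. Of 33 amino acid transporters, 7 were higher and 8 lower, with 4 higher without empty vector replicate 1 or 3. SLC1A3, a glutamate transporter, rose from 10.6 ± 0.803 to 18.0 ± 0.122 CPM, and SLC43A3 fell from 27.6 ± 1.41 to 17.4 ± 1.96 CPM. SLC7A11, the cystine and glutamate exchanger, had a log2FC of 0.14.

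Pathways of ABCC1 substrates had members called in both directions. The share called was 37.9% of glutathione genes, 37.9% of NRF2 targets, 25.7% of sphingolipid genes and 58.8% of leukotriene and prostaglandin genes. Over all genes tested it was 37.6%, so glutathione genes and NRF2 targets were called about as often as any gene. Among 29 glutathione genes, 4 were higher and 7 lower, with 4 lower without empty vector replicate 1 or ABCC1 replicate 2 and 7 higher with no filter on low counts. GCLC, the catalytic subunit of glutamate cysteine ligase, was at 47.9 ± 1.83 and 56.8 ± 4.86 CPM (log2FC 0.24, adjusted p = 0.013). Its adjusted p was 0.0583 without empty vector replicate 2 and 0.0507 without ABCC1 replicate 1. GSR, glutathione reductase, was not called (log2FC -0.10). NQO1, a quinone reductase and NRF2 target, rose from 7.37, 7.81 and 7.33 to 13.4, 13.7 and 12.8 CPM (1.77-fold, adjusted p = 9.9e-06). It was 1 of 7 higher members, against 4 lower, among 29 NRF2 targets. Higher members numbered 3 and 4 without empty vector replicates 1 and 2 and 4 without ABCC1 replicate 1. HMOX1, heme oxygenase, was not called, at 3.34 ± 0.136 and 3.70 ± 0.535 CPM. ALOX5 and LTC4S, which make the leukotrienes, had too few counts to test. Of the 17 tested enzymes and receptors of leukotrienes and prostaglandins, 4 were higher and 6 lower, with 3 lower without empty vector replicate 1. PTGER3, a prostaglandin E receptor, fell from 24.2 ± 1.14 to 8.97 ± 0.0927 CPM, and LTB4R, the leukotriene B4 receptor, rose from 5.85 ± 0.151 to 8.65 ± 0.567 CPM. Sphingosine 1-phosphate, another exported lipid, acts on S1PR1, which was higher (log2FC 0.97), and S1PR3, which was lower (-0.78). In the sphingolipid list, 2 of 35 were higher and 7 lower, with 11 lower without ABCC1 replicate 3.

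TFRC, the transferrin receptor that brings iron into the cell, had one of the largest rises among well expressed genes. It was at 151, 141 and 144 CPM in the control and 380.1, 370.0 and 308 CPM in the ABCC1 line (2.43-fold, adjusted p = 1.0e-06), and the lowest ABCC1 library lay far above the highest control. Of 15 iron genes, 2 were higher, TFRC and TFR2, the second transferrin receptor (log2FC 0.50). Another 2 were lower, with 5 lower without ABCC1 replicate 3. FTH1, the ferritin heavy chain, was at 396 ± 77.6 and 316 ± 15.4 CPM and was not called (adjusted p = 0.054), and neither was SLC40A1, the iron exporter ferroportin (log2FC 0.09). SLC30A1, a zinc exporter, rose from 82.7 ± 6.06 to 114 ± 2.09 CPM, as 1 of 7 higher and 2 lower members among 22 zinc transporters and metallothioneins, with 5 lower without ABCC1 replicate 3.

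Few nuclear genes of the respiratory chain were called, with 1 of 81 higher and 8 lower. The lower members numbered 4 without empty vector replicate 3 and 13 without ABCC1 replicate 3, and the higher ones 4 with no filter on low counts. NDUFS1, a core subunit of complex I, had a log2FC of -0.31, and COX4I1, a subunit of cytochrome oxidase, was not called (0.01). Of 13 mitochondrially encoded genes, 2 were higher and 0 lower by edgeR, with 1 lower at an unadjusted p under 0.05 and 1 lower by DESeq2. Without ABCC1 replicate 3, edgeR called 4 of them lower. MT-ND1, a complex I subunit, had a log2FC of 0.46, with an adjusted p of 0.0507 when no filter on low counts was applied. MT-CO1, of cytochrome oxidase, was at 2465 ± 202 and 2322 ± 302 CPM and was not called. The mitochondrial genome took 2.19 to 2.40% of the control libraries, 2.21 and 2.36% of ABCC1 replicates 1 and 2, and 2.80% of ABCC1 replicate 3. In hypoxia targets, 9 of 36 were higher and 8 lower, with ADM, the vasodilator adrenomedullin, at -1.04 and NDRG1, a growth-related hypoxia gene, at 0.77. In NAD metabolism, 2 of 24 were higher and 2 lower, with 6 higher without ABCC1 replicate 3, and NAMPT, the rate-limiting enzyme of NAD salvage, was not called (log2FC -0.15).

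Most transcription factors of the adrenergic state were lower. Of 24, 15 were lower and 2 higher, with a median log2FC of -0.22. INSM1, a zinc finger factor of neuroendocrine cells, was at 12.0, 10.5 and 10.3 against 1.55, 1.25 and 2.21 CPM (6.35-fold lower, adjusted p = 7.0e-07). These libraries did not overlap. GATA3, HAND1, ISL1 and TFAP2B, regulators of sympathetic development, had log2FCs of -0.33, -0.53, -0.56 and -0.22. PHOX2A had -0.48, with an adjusted p of 0.168 when no filter on low counts was applied. HAND2 did not differ beyond its spread. The higher members were MYCN, given above, and HEY1, a repressor of the Notch family of responses, at 25.3, 24.6 and 24.4 against 54.6, 53.7 and 55.9 CPM (2.21-fold, adjusted p = 5.1e-08). Genes of the opposite, mesenchymal state were divided, with 8 higher and 7 lower among 26. SNAI2 and TBX18, mesenchymal transcription factors, had log2FCs of 0.94 and 1.16, PRRX1, a core factor of that state, had -0.27, and VIM was not called (-0.02).

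Catecholamine genes were called in both directions: 3 of 14 were higher and 4 lower, with 3 higher and 7 lower without ABCC1 replicate 3. DBH, which converts dopamine to noradrenaline, was at 395, 381 and 383 CPM in the control and 204, 201 and 248 CPM in the ABCC1 line (1.77-fold lower, adjusted p = 1.9e-05). TH, the rate-limiting enzyme of the pathway, rose from 54.6 ± 4.29 to 75.1 ± 10.1 CPM (log2FC 0.46, adjusted p = 0.0039). SLC18A1, the vesicular monoamine transporter of chromaffin cells, fell from 34.2 ± 0.706 to 13 ± 1.70 CPM, and SLC6A2, the noradrenaline transporter, had a log2FC of -0.29.

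Secretory granule genes were lower in 10 of 21 cases and higher in 3. CHGA, the granule matrix protein chromogranin A, was at 7470.1, 6780.2 and 6882 CPM in the control and 4970.1, 4761 and 5146 CPM in the ABCC1 line, without overlap (log2FC -0.51, adjusted p = 6.0e-05). SCG2 and CPE, a granin and a prohormone carboxypeptidase, had log2FCs of -0.30 and -0.50. PCSK1, a prohormone convertase, and RAB27A, a GTPase of granule docking, were both more than 2-fold lower (-1.20 and -1.15). Among neuropeptides and hormones, 9 of 17 were lower and 1 was higher, with a median log2FC of -0.43. VIP, a vasodilator peptide, was the higher one, at 32.1 ± 2.79 against 50.9 ± 1.5 CPM. NPY, a sympathetic cotransmitter, had a log2FC of -0.37, and GAL, galanin, was at 829 ± 105 and 774 ± 63.3 CPM and was not called.

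**Figure D3:**
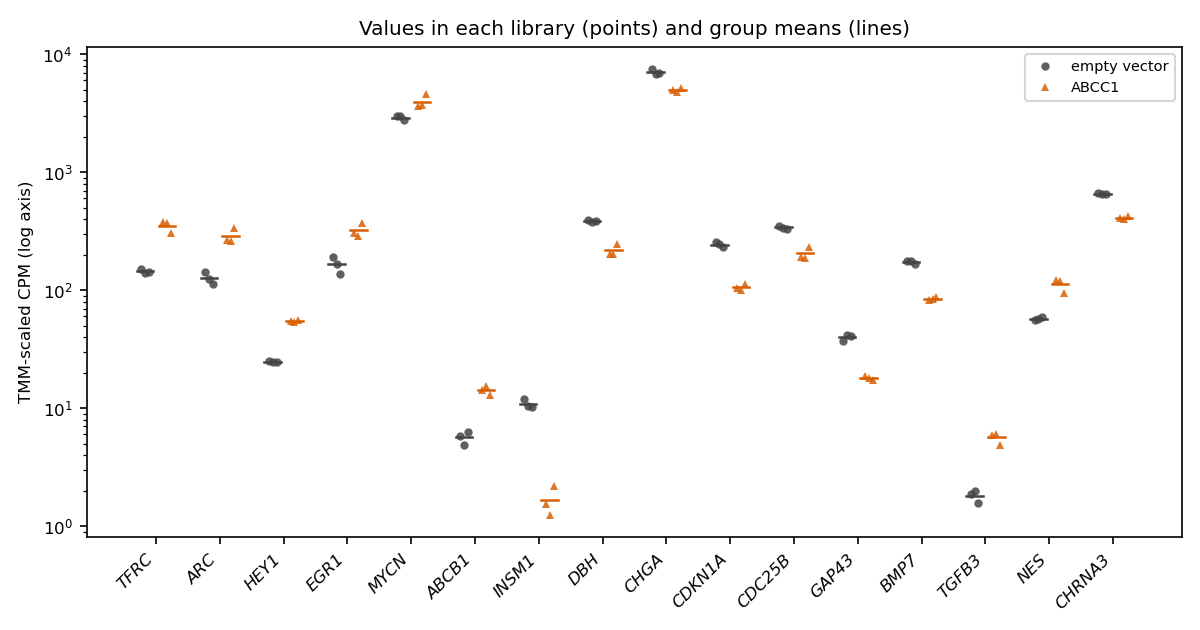
Points give the TMM-scaled CPM of 16 genes in each of 3 empty vector libraries (grey circles) and 3 ABCC1 libraries (orange triangles) on a log axis, and lines give group means. The groups do not overlap for any of the genes drawn, and the rise of TFRC from 145 to 353 CPM and the fall of INSM1 from 10.9 to 1.67 CPM are among the widest gaps.

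Neuronal structure genes were more often lower than higher. Of 35 cytoskeleton and growth cone genes, 18 were lower and 4 higher, with a median log2FC of -0.15. GAP43, a growth cone protein, was at 37.1, 41.7 and 40.9 CPM in the control and 18.7, 18.1 and 17.2 CPM in the ABCC1 line (2.21-fold lower, adjusted p = 3.8e-07). BASP1, a related membrane protein, MAPT, the microtubule protein tau, and DCX, doublecortin, had log2FCs of -1.0, -0.52 and -0.55. TUBA1A, the main tubulin of young neurons, had -0.48. NES, the intermediate filament nestin of neural progenitors, ran the other way, at 56.1, 57.6 and 58.8 against 123, 121 and 95.5 CPM (1.97-fold, adjusted p = 3.2e-05). Neuronal RNA-binding proteins were lower in 17 of 33 cases and higher in 3. HNRNPLL, a splicing regulator, fell from 44.5 ± 2.64 to 14.6 ± 0.715 CPM, and MSI1, a translational repressor of neural progenitors, from 15.4 ± 1.90 to 5.86 ± 0.761 CPM. ELAVL4 and CELF4, neuronal RNA-binding proteins, were not called (log2FC -0.09 and -0.12).

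Receptors and channels of excitable cells were lower more often than higher. Of 31 receptors of glutamate, GABA and glycine, 17 were lower and 6 higher, with a median log2FC of -0.50. GRIA2, the AMPA receptor subunit that limits calcium entry, was at 31.3, 33.0 and 33.2 CPM in the control and 21.2, 21.0 and 19.5 CPM in the ABCC1 line (log2FC -0.66, adjusted p = 1.1e-05). GLRB, the glycine receptor beta subunit, and GRM8, a metabotropic glutamate receptor, had log2FCs of -1.11 and -2.44. Sodium and calcium channel subunits were lower in 11 of 30 cases and higher in 3. SCN9A, the sodium channel of peripheral neurons, SCN3B, an accessory subunit, and CACNA2D1, an auxiliary calcium channel subunit, had log2FCs of -0.56, -0.55 and -0.67. CACNA1B, which forms the N-type channel, was not called (-0.11). Potassium channels were split, with 13 higher and 19 lower among 59. KCNH2, the hERG channel, was at 228 ± 10.5 and 239 ± 27.5 CPM and was not called.

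The ganglionic nicotinic receptor was lower. CHRNA3, its alpha subunit, was at 662, 657 and 656 CPM in the control and 408, 398 and 428 CPM in the ABCC1 line (log2FC -0.68, adjusted p = 8.4e-07), and CHRNB4, its beta partner from the same gene cluster, had a log2FC of -0.44. Of 39 receptors of amines, acetylcholine and purines, 10 were higher and 14 lower. ADRA2A, the inhibitory autoreceptor for noradrenaline, was lower (-0.76), P2RY6, a receptor of UDP, was higher (2.19, from 0.682 ± 0.0966 to 3.13 ± 0.286 CPM), and CHRM3 was not called (-0.06). In cyclic nucleotide signaling, 9 of 38 genes were higher and 14 lower, with 5 higher without empty vector replicate 1 or ABCC1 replicate 1. The protein kinase A subunits PRKACB, PRKACA and PRKAR1A had log2FCs of -0.50, -0.32 and -0.36. PDE4A and PDE4D, phosphodiesterases of one family, moved in opposite directions, at 0.71 and -0.26, and ADCY1, an adenylyl cyclase, was not called (0.03).

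Clustered protocadherins, which give neurons surface identity from tandem arrays of similar genes, were lower in 20 of 45 cases and higher in 2, with a median log2FC of -0.41. In the alpha and gamma clusters the first exons are alternative starts that share downstream exons, and genes of all clusters are similar in sequence, so the counting of read pairs between neighbors is uncertain. PCDHGC3 was at 65.8, 64.7 and 67.0 CPM in the control and 47.2, 46.0 and 44.9 CPM in the ABCC1 line (log2FC -0.52, adjusted p = 9.4e-06), and PCDHGC4 had a log2FC of -0.80. Cadherins and nonclustered protocadherins showed no common direction, with 8 higher and 9 lower among 30. The higher members numbered 5 without empty vector replicate 1 or 2 or with at least 10 counts in every library. CDH11, a mesenchymal cadherin, rose (log2FC 0.62), PCDH9 fell from 99.6 ± 6.97 to 31.0 ± 0.867 CPM, and CDH2, N-cadherin, was not called (0.07).

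Among 67 axon guidance genes, 14 were higher and 22 lower, with 9 and 7 higher without empty vector replicates 2 and 3. SEMA3A, a secreted repulsive cue, was at 58.1, 60.0 and 62.9 CPM in the control and 18.2, 19.8 and 18.1 CPM in the ABCC1 line (3.23-fold lower, adjusted p = 1.1e-08). Its receptor NRP1 was lower as well, at 31.2, 29.3 and 31.7 against 11.9, 11 and 10.7 CPM (2.74-fold, adjusted p = 7.5e-08). SEMA3C, another ligand of the class, had a log2FC of -1.02. The Slit receptor ROBO2 and its ligand SLIT2 had -1.6 and -0.83. PLXNA4, a plexin that transmits class 3 semaphorin signals, moved up from 2.88 ± 0.377 to 13.9 ± 0.494 CPM, and EFNB1, an ephrin ligand, had a log2FC of 0.94. Organizers of synaptic adhesion were lower in 18 of 49 cases and higher in 11, with 6 higher when at least 10 counts in every library were required. ADGRL3, a latrophilin, had a log2FC of -3.74, and LRRTM2 was not called (0.16).

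Matrix genes changed in both directions. Of 34 collagens, 13 were higher and 5 lower, with 7 and 8 higher without empty vector replicates 1 and 3, and the median log2FC was -0.02. With at least 10 counts in every library, 8 were higher and 2 lower. COL4A1, a chain of basement membrane collagen, rose from 34.1 ± 1.40 to 42.3 ± 1.38 CPM, and COL4A5 and COL4A6, which lie head to head on the X chromosome, rose from low levels (log2FC 2.98 and 2.39). COL22A1, a collagen of tissue junctions, fell from 41.6 ± 0.365 to 15.2 ± 1.27 CPM. The fibroblast markers DCN and LUM rose beside them, from 39.3, 39.3 and 37.7 to 77.0, 78.3 and 75.8 CPM and from 85.4, 82.8 and 83.2 to 110.4, 109 and 108 CPM, and their part in these counts was not tested. Laminins, nidogens and integrins were higher in 10 of 37 cases and lower in 8. LAMA2, a laminin chain, fell from 5.91 ± 0.585 to 0.930 ± 0.132 CPM, and LAMC3, another chain, had a log2FC of 1.18. Among matrix proteases and their inhibitors, 7 of 28 were higher and 6 lower. ADAMTS4 and ADAMTS1, proteoglycan-cleaving enzymes, had log2FCs of 0.69 and 0.52, and MMP2, gelatinase A, was not called (0.07).

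BMP and TGF beta ligands differed in direction. In the list of 53, 17 were higher and 16 lower, with 11 higher without empty vector replicate 2. BMP7 was at 178, 176 and 167 CPM in the control and 83.0, 83.9 and 88.2 CPM in the ABCC1 line (2.04-fold lower, adjusted p = 5.1e-08). BMP4, the inducer of sympathetic fate, had a log2FC of -1.41, and ID1 and ID2, targets of BMP signaling, had -0.72 and -0.76. Among TGF beta genes, TGFB3 was at 1.86, 2.00 and 1.57 against 5.98, 6.06 and 4.90 CPM (3.11-fold, adjusted p = 6.9e-06). TGFB1, the receptor TGFBR2 and the signal transducer SMAD3 were higher too, with log2FCs of 0.85, 0.64 and 0.63, while LTBP1, the latent TGF beta binding protein, was lower (-1.47). GREM1, a secreted BMP antagonist, rose from a low level (1.17), INHBA, which forms activin A, fell (-2.14), and SMAD7, the inhibitory SMAD, was not called (-0.03). Several of these members, chosen after their values were seen, were near 1 CPM.

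In the Wnt pathway, 7 of 41 were higher and 9 lower. WNT4 fell from 8.96 ± 0.500 to 2.26 ± 0.208 CPM, FZD7, a receptor, rose from 29.2 ± 2.89 to 52.3 ± 4.79 CPM, and AXIN2, a feedback target, was not called (-0.25). In the Notch pathway, 4 of 26 were higher (15.4%) and 5 lower (19.2%), also close to the shares of all genes tested. The lower members numbered 3 without empty vector replicate 1, and the higher ones 7 with no filter on low counts. DLK1, a noncanonical ligand and a marker of chromaffin precursors, was at 1082, 977 and 949 CPM in the control and 402, 408 and 535 CPM in the ABCC1 line. DLL3, an inhibitory ligand, had a log2FC of -0.62, and NOTCH1 was not called (-0.12). Of 18 retinoic acid genes, 2 were higher and 6 lower, with CRABP2, a carrier of the ligand, rising from 132 ± 4.54 to 236 ± 15.8 CPM and RARB, a receptor and direct target, at -0.75. Among 16 HOX genes, 3 were higher and 4 lower, and HOXD9 and HOXD11, from one cluster, had log2FCs of 0.61 and -0.80.

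Genes that process APP or clear Abeta were lower in 17 of 39 cases and higher in 6, with 10 lower without empty vector replicate 1. CLU, the Abeta-binding chaperone clusterin, was at 77.3, 74.8 and 78.1 CPM in the control and 38.1, 36.7 and 40.5 CPM in the ABCC1 line (log2FC -1.0, adjusted p = 1.8e-07). ITM2C, an inhibitor of APP cleavage, had a log2FC of -0.55. APOE and LRP1, the carrier and its receptor, were higher (0.59 and 0.50), as was LRP8, another apolipoprotein E receptor (0.61), while LRP2, the related receptor megalin, was lower (-0.62). BACE1, the beta secretase, was not called, at 125 ± 0.948 and 126 ± 2.73 CPM. ADAM10, an alpha secretase, was slightly lower, at 91.1 ± 0.451 and 83.5 ± 1.83 CPM (log2FC -0.13, adjusted p = 0.028 by edgeR). It was not called with the replicate block (adjusted p = 0.085) or by DESeq2 (adjusted p = 0.058). The native APP row had a log2FC of -0.13 (adjusted p = 0.021). That call was lost without empty vector replicate 1 or 3 and ABCC1 replicate 1 or 2 (adjusted p from 0.0656 to 0.0967). Among engulfment and scavenger receptors, 9 of 26 were higher and 5 lower, with 5 higher without empty vector replicate 3. GULP1, an engulfment adaptor, fell from 96.6 ± 2.42 to 77.1 ± 1.59 CPM.

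Immune genes were called in both directions. Of all genes tested, 37.6% were called. The share was 50% of interferon-stimulated genes, 36.8% of antigen presentation genes and 42.9% of complement and cytokine genes. Of 32 interferon-stimulated genes, 11 were higher and 5 lower. The higher members numbered 7 without empty vector replicate 1, and the lower ones 3 without empty vector replicate 1 or 3 or ABCC1 replicate 1. IFI16, a DNA sensor, rose from 59.4 ± 2.59 to 96.5 ± 4.37 CPM, and IFIT1 was not called (0.07). In antigen presentation, 4 of 19 were higher and 3 lower, with 7 higher with no filter on low counts, and B2M, the light chain of MHC class I, was not called (0.16). In complement and cytokines, 8 of 28 were higher and 4 lower, with CX3CL1, a membrane-bound chemokine, at 5.91 ± 0.365 against 12.0 ± 1.0 CPM. The higher members numbered 4 and 5 without empty vector replicates 1 and 3 and 5 without ABCC1 replicate 1 or with a minimum of 10 counts per library, and the lower ones 8 with no filter on low counts.

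Imprinted genes were lower in 10 of 30 cases and higher in 3. IGF2, a fetal growth factor, was at 2483, 2779 and 2361 CPM in the control and 1378, 1385 and 1834 CPM in the ABCC1 line (log2FC -0.73, adjusted p = 8.1e-04), and the adjusted p was 0.0534 when no filter on low counts was applied. H19 and MEG3, noncoding RNAs, had log2FCs of -0.34 and -0.22. Of 5 cancer testis antigens tested, 1 was higher (TEX14, given below) and 2 lower, LIN28B and TEX15, with log2FCs of -0.25 and -0.65. Zinc finger genes of chromosome 19, a tandem family of KRAB repressors in large part, were called close to the background, with 33 of 228 higher and 50 lower. They share repeated zinc finger sequence, so counts between close relatives are uncertain. The higher members numbered 21 and 20 without empty vector replicates 1 and 3 and 58 without ABCC1 replicate 3, and the lower members 31 without empty vector replicate 2. By chromosome, the median log2FC lay between -0.05 and 0.05 on every autosome and on X, and the share of genes at least 1.5-fold lower ranged from 3.47% on chromosome 16 to 9.7% on chromosome 13.

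Graded changes were set apart from genes that were on in only 1 line. They were genes at 5 CPM or more in both lines with an adjusted p of at most 0.001, which came to 1388 of 10823, with 589 higher and 799 lower. The 10 largest rises included FMN1, an actin nucleator (log2FC 1.51), ARFGEF3, a regulator of granule traffic (1.41), SH3PXD2B, a scaffold of podosomes (1.38), LINC02965, a noncoding RNA (1.21), and TEX14, a protein of intercellular bridges (1.14). ABCB1, TFRC, ARC and HEY1 are given above, and MT-TF, a mitochondrial tRNA, had a log2FC of 1.22. The 10 largest falls were led by ARHGAP36, which inhibits protein kinase A in neuroblastoma cells, at 49.3, 52.0 and 49.0 against 9.35, 9.85 and 10.4 CPM (5.07-fold lower). CREB5, a bZIP transcription factor, was at 75.6, 80.9 and 78.1 against 15.1, 15.3 and 17.8 CPM (4.84-fold lower). The others were TIMP3 (log2FC -1.95), the unnamed gene ENSG00000233991, SEMA3A, PCDH9, DRGX, HNRNPLL, ROBO2 and NOX5, an NADPH oxidase. DRGX, a homeobox factor of sensory neurons, went from 17.1 ± 0.780 to 5.53 ± 0.405 CPM, and NOX5 from 15.3 ± 0.533 to 5.12 ± 0.338 CPM.

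The second and the third experiment compared ABCC1 with empty vector cells in 6 further libraries each, fitted alone. Fewer genes were called there, though more were tested. In the second experiment, 1.25% of 34091 genes were higher and 0.458% lower. In the third, 2.03% of 36509 were higher and 0.767% lower. Of the 10 graded rises, 8 had the same sign in the second and 8 in the third experiment, and TFRC, ARC and HEY1 were called higher in both. TFRC had log2FCs of 1.01 ± 0.17 SE and 1.07 ± 0.18 SE there, ARC 1.51 and 2.24, and HEY1 0.88 and 1.17. Of the falls, 9 of 10 had the same sign in each later experiment, with 3 called in the second and 9 in the third. ARHGAP36 had log2FCs of -0.91 (not called, adjusted p = 0.077) and -1.55, and HNRNPLL -1.45 and -1.39. FMN1, SH3PXD2B, CREB5 and ABCB1, by contrast, had log2FCs between -0.22 and 0.20 in both later experiments and were called in neither. The difference between experiments was not tested, and they also differed in library kit, instrument and depth. Assigned read pairs per library ran from 19577853 to 30996228 in the second experiment and from 8866994 to 13332413 in the third. Per the study, the later experiments used cryopreserved cells in one case and newly transfected cells in the other, and the labels do not say which is which.

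**Figure D4:**
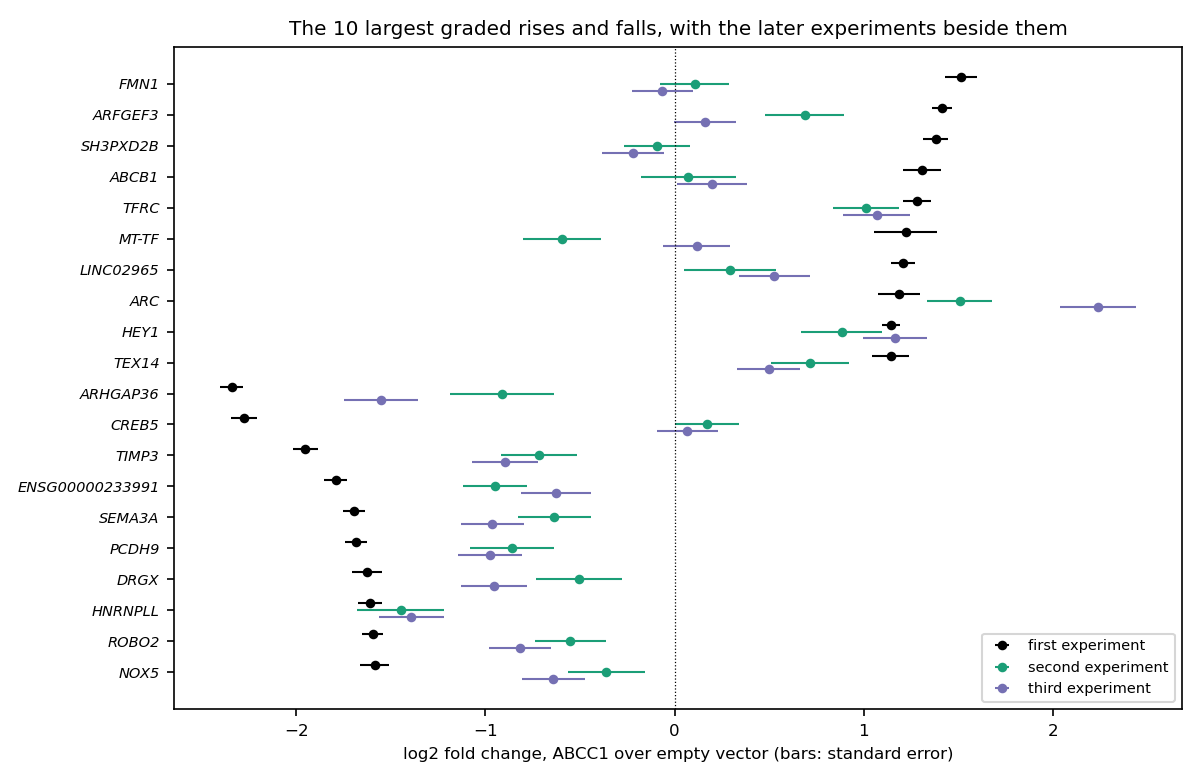
Points give the log2 fold change of ABCC1 over empty vector, with standard error bars, for the 10 largest graded rises and 10 largest graded falls, in the first (black), the second (green) and the third (purple) experiment. TFRC, ARC, HEY1 and HNRNPLL lie on the same side of 0 by 0.88 or more in all 3 experiments. FMN1, SH3PXD2B, CREB5 and ABCB1 lie near 0 in the later ones.

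A few lists, chosen after their values were seen, were followed into the later experiments over members tested in both. The ERK response list had 5 of 31 members called higher and 0 lower in the second experiment, and 8 higher and 0 lower in the third. At an unadjusted p under 0.05 these were 11 and 0, and 9 and 1. Mitosis genes had medians of -0.25 and -0.14 against 0.16 and 0.05 over all shared genes, with 1 and 4 of 45 called lower and 0 higher. At an unadjusted p under 0.05, 13 and 11 of them were lower and 0 and 1 higher. The adrenergic factors had medians of 0.18 and -0.09, with 1 called higher in each and 1 and 2 called lower. ATF4 targets had medians of 0.13 and -0.16, with 0 and 5 of 40 called lower and 0 and 1 higher. Those lower numbered 1 and 10, and those higher 6 and 3, at an unadjusted p under 0.05. Clustered protocadherins had 0 members called in either later experiment by edgeR. At an unadjusted p under 0.05, 0 and 6 of them were lower and 2 and 3 higher. Receptor tyrosine kinases had medians of -0.23 and -0.27, and edgeR called 1 of 32 lower and 0 higher in each. At an unadjusted p under 0.05, 9 and 12 of them were lower and 4 and 2 higher. Receptors of glutamate, GABA and glycine had medians of -0.46 and -0.21, with 1 of 31 called higher and 1 lower in the second experiment and 0 called in the third by edgeR. At an unadjusted p under 0.05, 9 and 7 were lower and 3 and 1 higher.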

How the data were processed

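RNA from 3 samples of each line was sequenced. The authors prepared libraries with a TruSeq kit per the paper's methods (the labels name that kit and a SMARTer kit), aligned reads with STAR 2.7.3a and counted read pairs on exons with featureCounts of Subread 2.0.0, without strand, over Ensembl genes of GRCh37. The deposited values are raw counts per gene. Without strand, reads of overlapping or antisense genes cannot be told apart.

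Only the 57905 Ensembl rows were fitted. The 92 spike-in and 6 vector rows stayed out. Symbols were found for 51996 gene IDs. Of the list names, 2669 matched and 13 were not analysed here.

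The fit used edgeR 4.0.16 in R 4.3.3: filterByExpr at a minimum count of 10, TMM scaling, the robust quasi-likelihood test (two-sided) and Benjamini-Hochberg adjustment over all genes tested. Library depth, 27433393 to 57937653 assigned read pairs, and a biological coefficient of variation of 5.67% set the precision. Data were simulated for 16736 genes of this comparison, with 100 genes of 1 CPM or more changed 2-fold and 100 changed 1.5-fold. The fit recovered 99% and 93% of them and made 13 false calls. The simulation gave every gene and library the same biological coefficient of variation. It held neither gene-to-gene differences in spread nor the departure of ABCC1 replicate 3, and its figures may not hold for the real libraries. The labels only number the replicates and the methods describe weekly plating of each line, so the p-values measure the spread between these samples of one line, which may be technical.

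The members and gene lists were chosen with earlier results of these data known. Named genes were the anchors of each list, up to 3 members with the largest called change at 1 CPM or more, and the graded changes (307 genes). Another 78 genes named or tabulated were chosen after their values were seen. Alternatives were DESeq2 1.42.0, RLE size factors, other count filters, protein-coding genes only, the replicate number as a block and leaving out each library. Promoters were RefSeq sequences on GRCh38.p14. Some members of the lists and 1 list are not reported here.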

Additional observations from a re-analysis of the deposited data

Results flagged for a closer look

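The codon-optimized ABCC1 insert lay outside the gene test. The lowest of the ABCC1 libraries held 328102 read pairs on it, against 15 in the highest empty vector library.

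In 3 genes of the graded changes, all libraries of a later experiment moved against the first experiment. SH3PXD2B rose in the first experiment (log2FC 1.38) and had a log2FC of -0.221 in the third. MT-TF rose in the first (1.22) and had -0.594 in the second. CREB5 fell in the first (-2.28) and had 0.17 in the second. None of these later values was called by edgeR, and the difference between experiments was not tested.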

How the results depend on the processing

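The counts of genes called higher and lower at an adjusted p of at most 0.05, with and without the 1.5-fold limit, stayed within 1.5 times of the values given under all 12 alternatives. For example, DESeq2 called 2556 higher and 2985 lower, and protein-coding genes alone gave 2579 and 2980. The number of genes at an adjusted p of at most 0.001 was 2011 and moved further: it was 4181 with no filter on low counts and 1125 with the replicate block. Leaving out 1 library at a time, it ranged from 871 to 3983, with the highest value without ABCC1 replicate 3 and 871, 885 and 877 without empty vector replicates 1, 2 and 3. Fewer libraries in a group account for part of the lower values by construction, and the cause of the rest was not tested. Same-numbered libraries did not deviate together (correlations of -0.13, -0.03 and -0.24). With 3 libraries per line and ABCC1 replicate 3 apart from its group, these values cannot show whether the numbers pair the libraries. With the replicate block, 4 rather than 7 NRF2 targets were higher, and APP and SLC7A11 lost their calls (adjusted p = 0.0629 and 0.0544). Among the named genes, 4218 values were recomputed, of which 4023 kept their side of the threshold, 39 gained a call, 156 lost one and 0 changed direction. Of 314 called genes, 270 kept their call under every alternative. Of 1368 recomputed list counts, 138 moved by over 1.5 times, and for the lists reported here those that also moved by at least 3 members are given with the list or above. Depth limits the genes near 1 CPM, where few read pairs carry a value.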
